A study of Glycine max with 2 samples.

Results

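The central stretches of soybean chromosomes held few of the sites recovered with an AGL62-like antibody from young seeds, and the median fold enrichment of those sites was 5.44, against 5.43 at the sites elsewhere on the same chromosomes. Central peaks were defined by position alone. A peak was central where its summit lay between 35% and 65% of the chromosome span, the span being the end of the last peak on that chromosome. Chromosome 13 was left out. Of the 17179 peaks in the list, 15801 lay on the other 19 chromosomes, 1027 of them in the centre and 14774 in the rest of the same chromosomes.

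The peaks came from chromatin immunoprecipitation and sequencing of 1 ChIP library, made with a rabbit antibody to a peptide of the AGL62-like protein, called against 1 input library of total chromatin. Both libraries were from Williams 82 plants, from entire seeds 1.0 to 1.5 mm in length whose embryos were at the globular stage. No treatment or mutant was compared, and embryo, endosperm and seed coat went into the same sample, so the tissue in which a site was bound cannot be told apart. Each label reads replicate 1, and a lone ChIP library allows neither a check by replication nor a test between regions. The comparisons below describe this list, and counts of chromosomes are given as descriptions.

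AGL62 of Arabidopsis, after which the soybean protein is named, is a type I MADS-domain transcription factor that holds back cellularization of the endosperm, the tissue that feeds the embryo. MADS-domain proteins are known to bind DNA as dimers at CArG boxes. Soybean chromosomes are known for gene-rich arms on either side of a broad region of repeats and heterochromatin around the centromere, where recombination is low. The repeat content of the central stretches cannot be read from a peak list, so "central" here refers to position only.

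The depth behind each fold was small. Central summits rested on a median of 23 ChIP fragments, with a lowest value of 12 and a highest of 96, against a median of 23 and a range of 12 to 228 in the rest. At the lower 95% Poisson bound of their fragments, 701 central peaks (68.3%) kept a −log10 p at or above the lowest one listed, against 67.4% of the other peaks.

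Central peaks were sparse on every one of the 19 chromosomes. The centre takes up 30% of the span, 270.2 Mb in all, and held 6.50% of the peaks (95% Wilson interval 6.13 to 6.90). Its density was 3.8 peaks per Mb (3.57 to 4.04, 95% exact Poisson) and that of the rest was 23.4 (23.1 to 23.8), a ratio of 0.162 (0.152 to 0.173). This is 1 peak per 263 kb in the centre, against 1 per 42.7 kb elsewhere. Called peaks covered 1682 bp per Mb in the centre and 10706 bp per Mb in the rest. Both intervals take each peak as its own event, so they understate the error where peaks lie in groups.

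**Figure D1:**
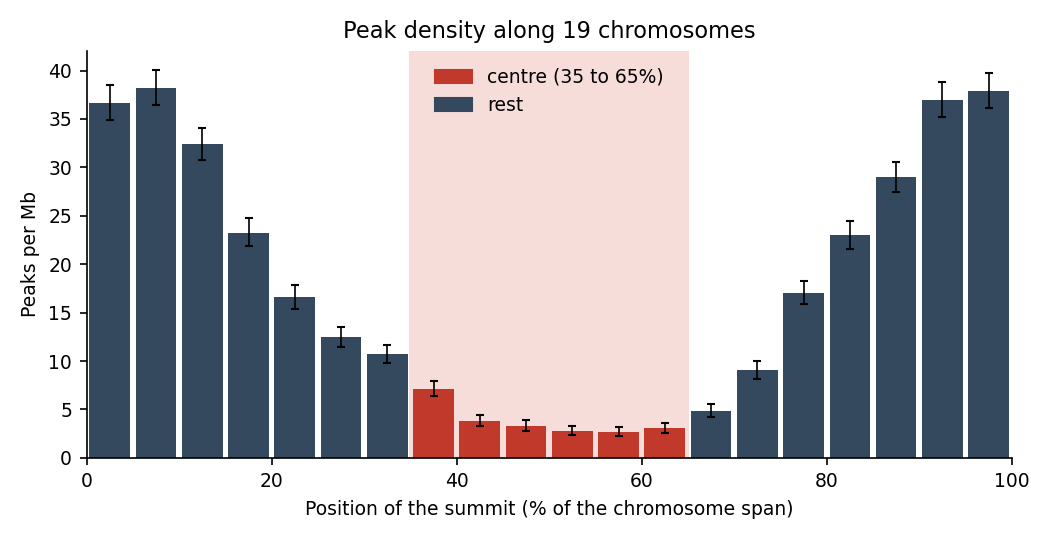
Peaks per Mb (y axis) in 20 bins of 5% of the chromosome span (x axis), summed over 19 chromosomes. Red bars are the centre, dark bars the rest, and error bars are 95% exact Poisson intervals. Density reaches its lowest value, 2.69 peaks per Mb, between 55% and 60% of the span, against 38.2 between 5% and 10%.

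Density kept falling inside the centre. It was 7.15 peaks per Mb (6.39 to 7.97) between 35% and 40% of the span, 3.8 between 40% and 45%, and 2.69 (2.23 to 3.21) between 55% and 60%. From 60% to 65% it was 3.06 (2.57 to 3.62). The pooled decline was therefore not symmetrical, and 493 of the 1027 central peaks (48.0%) lay between 35% and 45%. Chromosomes 8, 7 and 17 held 62, 52 and 49 of the 322 peaks between 35% and 40%. The asymmetry rested largely on them, and the other chromosomes together had a more even profile from side to side. The flanking stretches, from 25% to 35% and from 65% to 75%, had 9.26 peaks per Mb (8.83 to 9.72).

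The chromosomes differed in how many peaks their centres held. Chromosome 8 had the densest centre, with 139 peaks or 9.71 per Mb (8.16 to 11.5), against 27.4 per Mb in its rest. Chromosomes 7 and 17 followed with 94 and 83 central peaks, and these 3 chromosomes together held 316 central peaks (30.8%). Chromosome 10 had the sparsest centre, with 25 peaks or 1.62 per Mb (1.05 to 2.39), against 24.6 per Mb in its rest. Chromosome 20 also had 25 central peaks, 1.75 per Mb, against 20.3 per Mb in its rest. The highest centre (9.71 per Mb) stayed below the lowest rest, 16.6 per Mb on chromosome 18.

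Central peaks were also unevenly split between the 2 sides of the midpoint. Of the 1027, 642 lay between 35% and 50% of the span and 385 between 50% and 65%, and 12 of the 19 chromosomes had more than 50% of theirs on the first side. On chromosome 8, 131 of 139 central peaks lay on the first side, on chromosome 7, 83 of 94, and on chromosome 17, 72 of 83. Chromosome 19 had the opposite order, with 2 of 30 on the first side, and so did chromosome 5, with 8 of 56, and chromosome 2, with 6 of 41. On chromosome 1 the split was nearly even, with 41 of 79 on the first side.

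**Figure D2:**
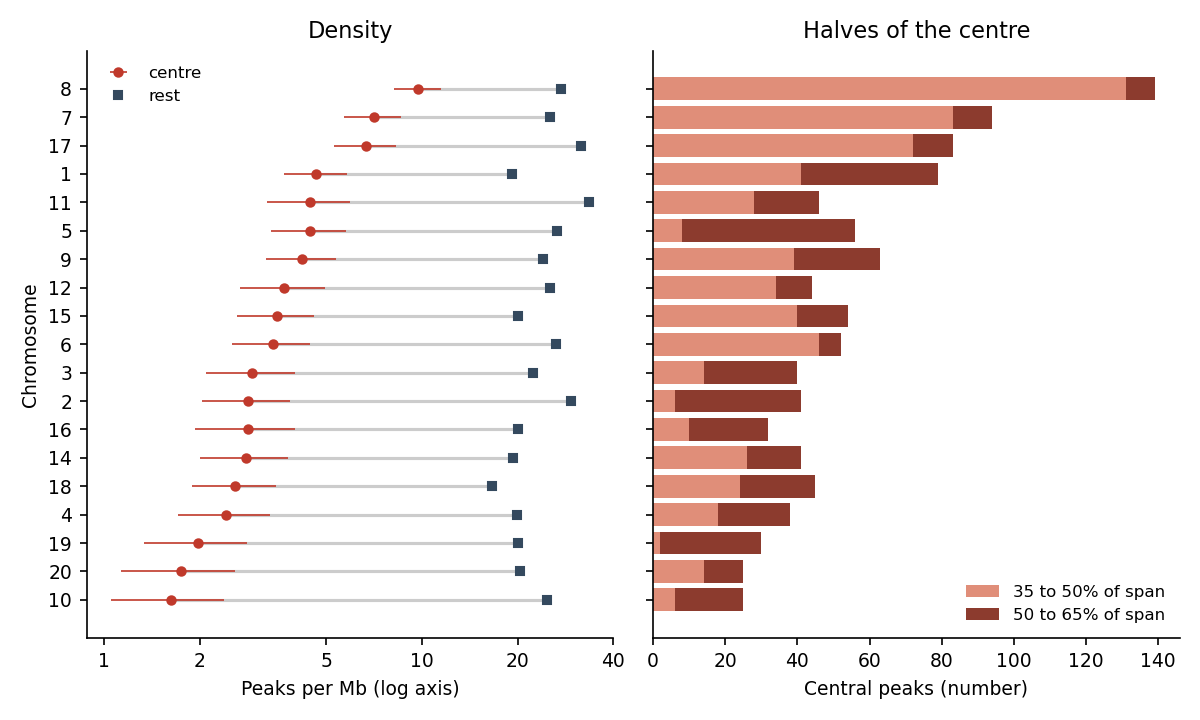
Left, peaks per Mb (log axis) for each of 19 chromosomes, with the centre as red circles with 95% exact Poisson intervals and the rest as dark squares. Right, the number of central peaks on each side of the midpoint. Chromosome 8 has the densest centre (9.71 per Mb) and most of its 139 central peaks lie before 50% of the span.

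At the 35% bound, the nearest peaks on either side were both narrow, at 278 bp inside and 279 bp outside. This pair was on chromosome 6. The peak just inside, chr6:17927048-17927325 at 35.010% of the span, had a fold of 5.17 (counting range 2.40 to 8.15), and the peak just outside, chr6:17918371-17918649 at 34.993%, had a fold of 4.53 (counting range 2.06 to 7.5). At the 65% bound, the peak just inside was at chr3:29697532-29697783, at 64.990% and 252 bp wide, with fold 4.79 (counting range 2.90 to 7.5). The peak just outside was at chr5:27423687-27424907, at 65.030% and 1221 bp wide, with fold 7.82 (counting range 4.94 to 11.96).

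Central and other peaks were nearly alike in fold, fragments and width. Fold over input had a median of 5.44 in the centre (order-statistic interval 5.32 to 5.58) and 5.43 in the rest (5.38 to 5.45). The middle 50% of folds ran from 4.56 to 7.02 in the centre and from 4.52 to 7.02 in the rest. Fragments at the summit had middle 50% ranges of 19 to 30 in both. The median peak width was 378 bp in the centre (370 to 390) and 387 bp in the rest (385 to 390), and the 2 intervals overlapped. Peaks of 1 kb or wider made up 3.21% of the centre and 3.17% of the rest, a difference of 0.046 percentage points (Newcombe interval −0.92 to 1.34). The median −log10 q was 9.71 in the centre and 9.54 in the rest. Only peaks that passed the caller's threshold enter these values, so sites below it were not compared.

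A fold of 10 or more was reached by 81 central peaks (7.89%, Wilson interval 6.39 to 9.70) and by 1048 of the other peaks (7.09%, 6.69 to 7.52). Over all 15801 peaks of the 19 chromosomes the share was 7.15%, so the central share lay near this background. The difference, centre minus rest, was 0.79 percentage points (−0.76 to 2.65). At a fold of 20 or more there was 1 central peak (0.097%), against 27 other peaks (0.183%), with 0.177% over all. Of the 1000 peaks with the highest fold on the 19 chromosomes, 70 (7.0%) were central, and of the first 100, 4 were. By fragments, 68 of the first 1000 and 7 of the first 100 were central. The share of central peaks among all peaks was 6.50%.

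By chromosome, the median fold was higher in the centre on 10 chromosomes, equal on 1 and lower on 8. The log2 ratio of the medians, centre over rest, was 0.03 ± 0.11 (SD over 19 chromosomes) and ran from −0.20 to 0.23. Central medians spread from 4.77 on chromosome 3 to 6.38 on chromosome 14, more widely than those of the rest (5.32 to 5.58), and each central median rests on only 25 to 139 peaks. The intervals of centre and rest overlapped on 18 of the 19 chromosomes. The exception was chromosome 3, where 40 central peaks had a median fold of 4.77 (4.39 to 5.23), against 5.50 (5.32 to 5.59) in its rest.

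**Figure D3:**
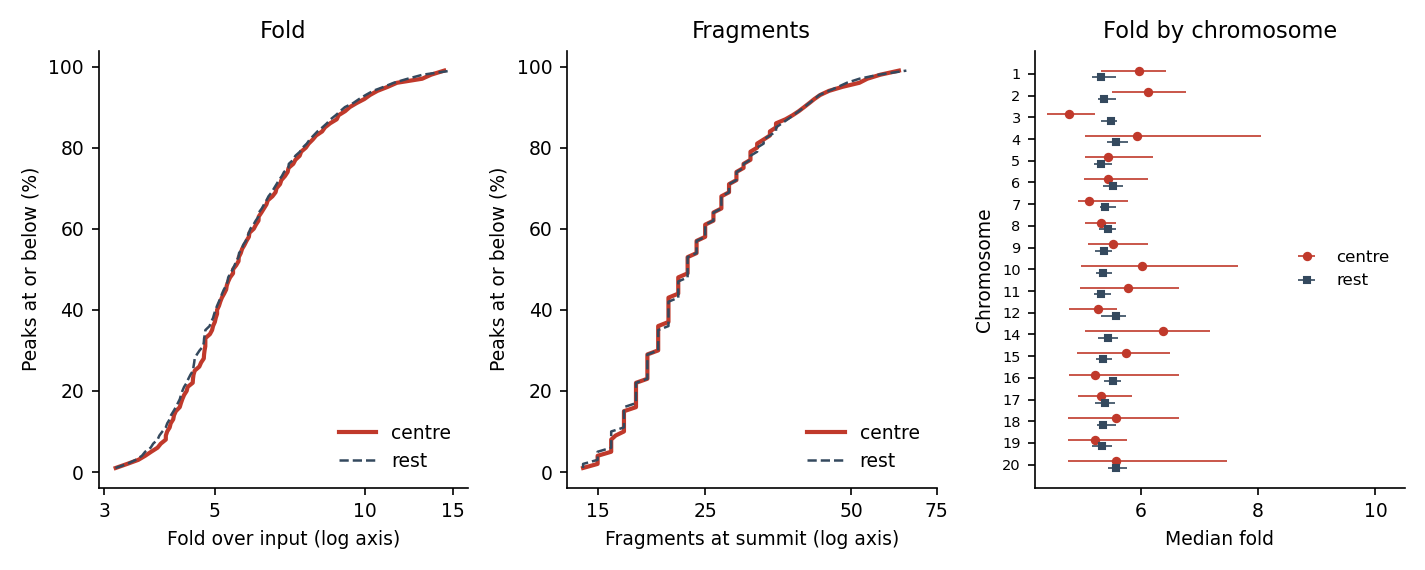
Left and middle, cumulative share of peaks (y axis) by fold over input and by fragments at the summit (log axes), for the centre (solid red) and the rest (dashed), drawn from percentiles 1 to 99. Right, median fold of each chromosome in the centre (red circles) and the rest (dark squares) with 95% order-statistic intervals. The curves of centre and rest run together, with median folds of 5.44 and 5.43.

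The central peak with the highest fold was at chr4:20433061-20433605, at 39.0% of the span. Its fold was 24.5 (counting range 19.7 to 29.97), from 91 fragments over an input level at the floor of 2.76 fragments. By fold it ranked 13 among the 15801 peaks. The next was at chr9:20133686-20134202, with fold 18.1 (counting range 10.7 to 24.1) from 71 fragments. Its range overlapped that of the first, which leaves the order of these peaks unsettled.

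The third by fold was at chr14:31388090-31389153, with fold 16.8 (counting range 12.1 to 23.1), and was the one of these 5 that lay past the midpoint, at 64.2% of the span. The remaining ones were at chr6:19885353-19886043, with fold 16.7 (counting range 11.8 to 21.4), and at chr7:16888936-16889831, with fold 16.2 (counting range 11.4 to 21.1). Of the 5, 4 had another summit within 10 kb, at distances between 2502 bp and 5816 bp, and the peak on chromosome 14 had its nearest at 54646 bp.

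Ranking by fragments gave a partly different list. The first was at chr8:21974657-21975798, at 46.0% of the span, with 96 fragments over 6.40 of input, or fold 13.1 (counting range 6.81 to 25.8). Another summit lay 1025 bp from it. The second was the chromosome 4 peak above. The others were at chr6:21474551-21475631, with 86 fragments (fold 15.9, counting range 9.92 to 25.4), at chr7:16547328-16547924, with 77 fragments (fold 11.2, counting range 5.60 to 22.8), and at chr5:21950568-21951629, with 75 fragments (fold 10.9, counting range 5.44 to 22.3). The chromosome 5 peak lay at 52.1% of the span, close to the sparsest part of the profile.

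The widest central peak was at chr20:23415909-23418768, 2860 bp long at 49.1% of the span, with fold 13.9 (counting range 9.59 to 18.7). Its nearest summit was 107121 bp away. The next widest were 2270 bp at chr17:14689730-14691999, with fold 5.52 (counting range 1.96 to 8.80), and 1673 bp at chr1:26610812-26612484, with fold 8.77 (counting range 6.09 to 12.3). At 2 kb or wider there were 2 central peaks (0.195%, Wilson interval 0.053 to 0.707), against 60 in the rest (0.406%, 0.316 to 0.522). The 2 intervals overlapped, so these shares are not told apart.

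In classes that widened with distance, the central distances to the nearest summit fell into a short and a long range. Per kb of distance the central share fell steadily beyond 1 kb, so these ranges depend on the classes. A neighbour within 2 kb was found for 265 central peaks (25.8%, Wilson interval 23.2 to 28.6), against 4509 other peaks (30.5%, 29.8 to 31.3), a difference of −4.72 percentage points (−7.41 to −1.86). The density ratio was 0.162. Among peaks that passed at the lower counting bound the shares were 21.3% in the centre and 21.4% in the rest. Raising the cut in −log10 q to 10 left 14.1% and 15.1%, so little of the difference remained under these 2 cuts. A milder cut at 5 left 23.5% in the centre and 27.7% in the rest, and most of the difference remained. Each cut lowered the share in both zones, and how far the loss of peaks alone narrowed the difference was not tested. Distances between 5 and 10 kb were found for 58 central peaks (5.65%), against 15.5% of the rest, and distances between 10 and 20 kb for 64 (6.23%), against 13.8%. Beyond 100 kb the order turned, with 236 central peaks (23.0%, 20.5 to 25.7) against 347 of the rest (2.35%, 2.12 to 2.61). With a −log10 q of 10 or more these shares were 40.7% in the centre and 6.94% in the rest, and with bounds of 25 to 75% of the span they were 14.4% and 1.48%. A sparser set of points has longer distances by construction, and how far the density alone sets these shares was not tested.

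**Figure D4:**
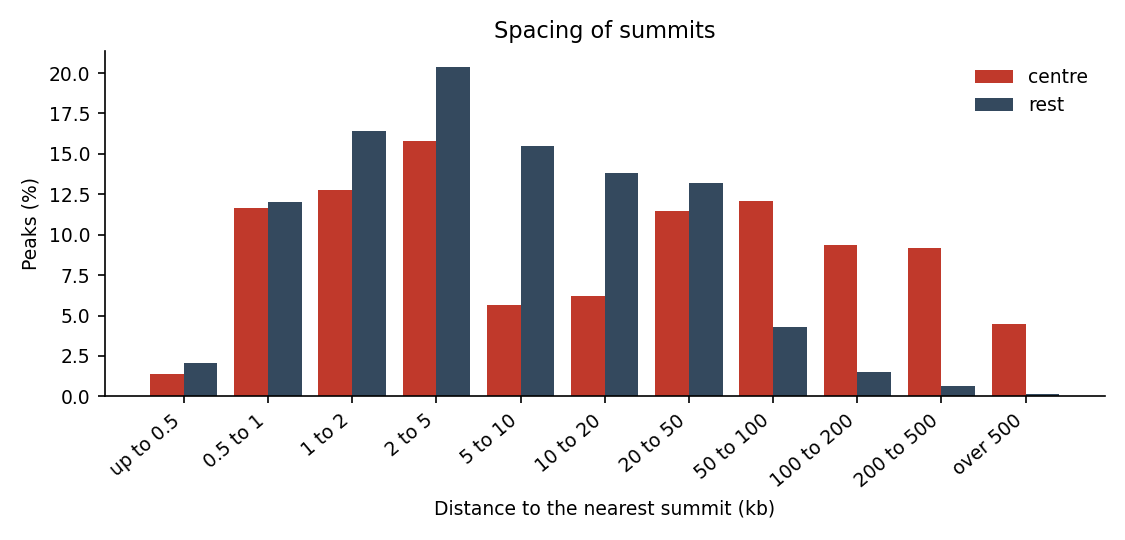
Share of peaks (y axis) by distance from the summit to the nearest other summit on the chromosome, in classes of unequal width (x axis, kb), for the centre (red) and the rest (dark). The centre has a dip between 5 and 20 kb, with 5.65% and 6.23% in these 2 classes, between 15.8% at 2 to 5 kb and 12.1% at 50 to 100 kb.

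The share with a neighbour within 2 kb was lower in the centre on 15 chromosomes and higher on 4. It was highest on chromosome 5, at 44.6% of 56 central peaks, against 30.8% in its rest. On chromosome 16, none of the 32 central peaks had a neighbour this close, which allows a share of up to 9.38%, against 29.9% in its rest. The share with the nearest summit over 100 kb away was higher in the centre on all 19 chromosomes, from 3.61% on chromosome 17 to 56.3% on chromosome 16, against 0.87% to 4.75% in the rest.

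Pairs of central summits within 2 kb had median spacing near that of such pairs elsewhere. The 2 kb limit that selects the pairs confines their spacing in both zones. There were 150 adjacent pairs of central summits within 2 kb, on 18 chromosomes, against 2525 pairs in the rest. The median distance between summits was 1015 bp in the centre and 1084 bp in the rest, and the facing edges lay 608.5 bp and 599 bp apart at the median. Edges were closer than the length of the shortest peak in 20.7% of central pairs and 20.3% of the others. Groups were smaller in the centre. When summits were linked by steps of 10 kb or less, 542 central peaks (52.8%) stood alone and 236 (23.0%) belonged to groups of 3 or more, against 33.6% and 41.7% of the rest. The largest group with a central peak had 7 members, against 11 in the rest. A sparser set of points gives smaller groups at a fixed step by construction. How far density alone sets these shares was not tested.

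In windows of 100 kb, 2130 of the 2704 windows in the centre (78.8%) held no summit, against 2201 of 6304 (34.9%) in the rest. At the other extreme, 106 central windows (3.92%) with 3 or more summits held 42.5% of the central summits. In the rest, 37.0% of windows had 3 or more and held 82.8% of the summits. The mean count per window was 0.381 in the centre and 2.34 in the rest, and a lower mean leaves more windows empty by construction. How far density alone sets these shares was not tested. The densest central window was at chr9:20300001-20400000, with 9 summits at a median fold of 5.27. Next came 4 windows of 8 summits, at chr7:16800001-16900000, at chr8:18100001-18200000, and at chr17:15400001-15500000 and chr17:15900001-16000000. Their median folds were 7.01, 4.46, 5.76 and 8.34 in this order. All of these windows lay between 37.2% and 40.6% of the span.

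Long empty stretches took up much of the zone. Between neighbouring central summits there were 60 gaps over 1 Mb, which add up to 110.4 Mb or 40.8% of the central length. The longest was on chromosome 19 between 18371941 and 23188452, 4.82 Mb from 36.3% to 45.9% of the span. Chromosome 2 had an empty stretch of 3.83 Mb (summits at 21478315 and 25312122) and chromosome 5 one of 3.37 Mb (summits at 15803702 and 19170589). The longest gap of a chromosome had a median of 2.40 Mb, and chromosome 1 had the shortest, 0.936 Mb. Gaps that cross a bound of the zone were not counted.

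Isolated and grouped central peaks differed little in enrichment. The median fold was 5.60 (order-statistic interval 5.39 to 5.85) in the 265 central peaks with a neighbour within 2 kb and 5.64 (5.32 to 6.20) in the 220 with the nearest at 2 to 10 kb. It was 5.32 (5.05 to 5.58) in the 306 at 10 to 100 kb and 5.32 (5.05 to 5.58) in the 236 over 100 kb, and all 4 intervals overlapped. The same order appeared in the rest, with 5.44 (5.35 to 5.52), 5.53 (5.46 to 5.58), 5.32 (5.27 to 5.37) and 5.32 (5.13 to 5.58) for the same classes of distance. There, with more peaks in each class, the intervals at 2 to 10 kb and at 10 to 100 kb did not overlap. The share with fold 10 or more was highest at 2 to 10 kb, at 11.4% in the centre (7.82 to 16.2) and 8.23% in the rest (7.52 to 9.0).

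Central peaks lay more often where input was low. Each peak is judged against the highest of 4 input levels, those in windows of 1 fragment length, 1 kb and 10 kb around it and a genome-wide floor of 2.76 fragments. The floor set the level where all 3 windows held less, which for the 10 kb window means fewer than 259.9 input reads. It did so for 188 central peaks (18.3%, Wilson interval 16.1 to 20.8), against 1442 other peaks (9.76%, 9.29 to 10.3), a difference of 8.55 percentage points (Newcombe interval 6.25 to 11.1). The share at the floor was higher in the centre on all 19 chromosomes. It ran from 8.43% on chromosome 17 to 43.9% on chromosome 14 in the centre, against 6.55% on chromosome 11 to 13.1% on chromosome 14 in the rest. Chromosome 17 was nearly even, with 8.43% against 8.37%, and so was chromosome 5, with 8.93% against 8.30%.

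Of the 3 windows, that of 10 kb showed the difference. The 10 kb window set the level in 101 central peaks (9.83%), against 20.97% of the rest. The 1 kb window set it in 28.6% of the centre and 28.5% of the rest, and the fragment-length window in 43.2% (40.2 to 46.3) and 40.8% (39.96 to 41.5). Among peaks whose level came from the floor or from the 10 kb window, the floor set it in 188 of 289 central peaks (65.1%, 59.4 to 70.3), against 31.8% (30.4 to 33.1) of 4540 other peaks. This share was higher in the centre on all 19 chromosomes. The median level itself moved little, at 3.19 fragments in the centre (3.08 to 3.29) and 3.29 in the rest. By construction it cannot lie below the floor.

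**Figure D5:**
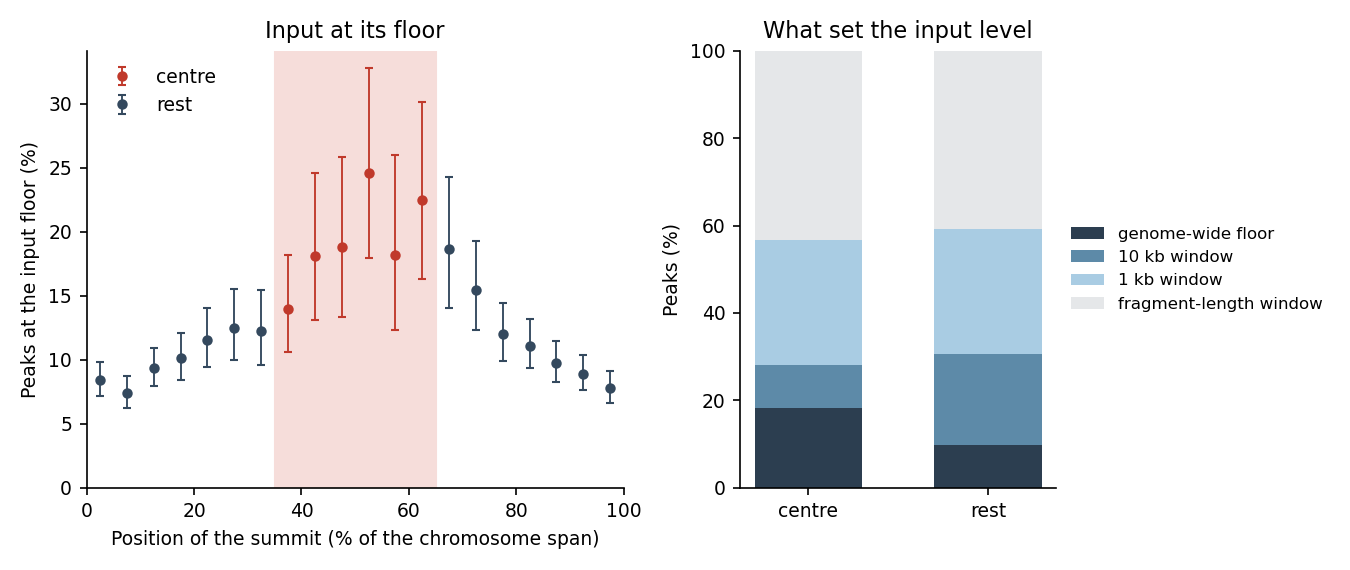
Left, share of peaks at the input floor (y axis) in bins of 5% of the chromosome span (x axis), with 95% Wilson intervals, for the centre (red) and the rest (dark). Right, share of peaks (y axis) whose input level was set by the floor or by each window. The share at the floor reaches 24.6% between 50% and 55% of the span, against 7.38% between 5% and 10%.

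Along the span, the share at the floor was 14.0% (10.6 to 18.2) between 35% and 40%, 24.6% (17.9 to 32.8) between 50% and 55%, 18.2% (12.3 to 26) in the sparsest bin between 55% and 60%, and 22.5% (16.3 to 30.1) between 60% and 65%. These intervals overlap. It was 14.0% in the flanking stretches and 7.32% (6.42 to 8.34) within 2 Mb of the chromosome ends. The share at the floor was thus higher in the sparse centre than towards the ends, and it broadly rose as density fell along the span. It was 7.38% at 38.2 peaks per Mb (5% to 10% of the span) and 11.1% at 23.0 (80% to 85%). It was 15.5% at 9.04 peaks per Mb (70% to 75%) and 24.6% at 2.80 (50% to 55%). The sparsest bin, at 18.2%, departed from this order, with an interval that overlapped those of its neighbours. The median input level was 3.41 fragments in the sparsest bin, the highest of the 20. In the other central bins it lay between 3.08 and 3.20, against 3.29 in the first and the last bin of the span. Levels take steps of whole input reads, and no interval was computed for the median of a bin. The part of input coverage in the low density of the centre was not tested.

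Low input also went with isolation. In the centre, 24.6% (19.5 to 30.5) of peaks over 100 kb from another summit were at the floor, against 15.5% (11.6 to 20.3) of those with a neighbour within 2 kb. In the rest the same classes had 21.6% (17.6 to 26.2) and 9.34% (8.52 to 10.2). Central and other peaks over 100 kb from another summit thus had overlapping intervals, while those with a neighbour within 2 kb did not. The fold of peaks at the floor had a median of 5.85 in the centre (5.58 to 6.12) and 5.85 in the rest, from 21 fragments in both. Above the floor it was 5.37 in both, from 23 fragments. A lower level raises the fold of a given count by construction.

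High input was not found at central peaks. None of the 1027 had a level of 3 times the floor or more, which allows a share of up to 0.292%, and 13 of the 14774 other peaks did (0.088%), so the 2 shares are not told apart at this number of peaks. The highest central level was 6.83 fragments, from 16 input reads, at chr17:15903114-15904262, at a fold of 7.15 (counting range 3.51 to 14.8). The next level, 6.40 fragments from 15 input reads, was shared by 5 peaks. Besides the chromosome 8 peak with 96 fragments, these were at chr18:22001593-22001868 (fold 3.11, counting range 1.28 to 7.49) and at chr18:29248259-29248589 (fold 2.7, counting range 1.08 to 6.69), at chr7:24841485-24841971 (fold 4.46, counting range 1.98 to 10.1) and at chr15:18793314-18793720 (fold 3.92, counting range 1.7 to 9.05). The highest level in the rest was 131.4 fragments.

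Chromosome 13, which the definition leaves out, had no such centre. Between 35% and 65% of its span it held 459 peaks, 33.6 per Mb (30.6 to 36.8), against 25.8 per Mb (24.1 to 27.6) in its rest. The share at the input floor was 6.97% (4.98 to 9.68) there, against 18.3% in the centres of the other 19 chromosomes, and 0.87% of those peaks lay over 100 kb from another summit, against 23.0%. The median fold was 5.43 (5.25 to 5.64), against 5.44. In the rest of the other 19 chromosomes the density was 23.4 per Mb, the share at the floor 9.76% and the share over 100 kb from another summit 2.35%. The stretch from 35% to 65% of chromosome 13 was thus nearer to these values than to those of the other centres in all 3 measures, and the median fold lay between 5.43 and 5.44 in all 3 sets.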

How the data were processed

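The data were 1 ChIP library and 1 input library of whole soybean seeds, grouped by their labels. Chromatin was fixed in 1% formaldehyde and sonicated to 100 to 500 bp, 10 µg of antibody was used, and libraries had 15 PCR cycles, per the labels' protocols. The series title and sample labels name AGL62-like, whereas the design text names WOX9-like. The submitters' processing notes name Bowtie 0.12.7, SAMtools 0.1.18 and MACS2. No source used here gives the genome build, the treatment of reads with several matches or the peak-calling settings.

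The peak list was read by the narrowPeak layout. In it, the deposited fold is the ratio of ChIP to local background signal at a summit. Each deposited p-value and q-value is a −log10. The deposited score equals 10 times the −log10 q, rounded down, and was not used. Positions are printed 1-based.

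Fragments at each summit and the input level were solved from fold and p-value, taking the fold as fragments plus 1 over level plus 1 and the p-value as a Poisson tail, as MACS2 is known to work. A whole number of fragments met both, within 0.0001 in −log10 p, for 100% of 17179 peaks. Levels fell on the floor or on whole input reads in windows of 1 fragment length (the shortest peak), 1 kb or 10 kb. Shares have 95% Wilson intervals, differences of shares Newcombe intervals, densities exact Poisson intervals and medians order-statistic intervals. The counting range of a fold combines the 95% exact Poisson bounds of the fragments and of the input reads, and never takes an input level under the floor. For a peak at the floor the input level is held fixed, so its range covers the fragments only and is narrower for that reason. Among the named peaks this holds for chr4:20433061-20433605, chr3:29697532-29697783 and chr1:26610812-26612484. All these intervals and ranges cover counting error only and treat neighbouring peaks as independent, and PCR copies are not independent molecules. Scripts were tested on simulated data. The software was Python 3.11.15 with scipy 1.17.1, numpy 2.4.6, matplotlib 3.10.9 and pandas 2.3.3.

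The members and lists were chosen with earlier results of these data known. Peaks named are the 5 highest by fold, the 5 highest by fragments, the 3 widest, those with the 3 highest input levels (ties included), the nearest to each bound, the 3 longest empty stretches and the 3 densest windows (ties included). The nearest genes, sequences and repeats were not analysed here, for want of a named build.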

Additional observations from a re-analysis of the deposited data

How the results depend on the processing

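Stricter thresholds, other bounds and left-out chromosomes changed the size of several values. They did not turn the order of centre and rest for density, input floor, spacing or width. Little of the difference in close neighbours was left at a −log10 q of 10 or more and at the lower counting bound. At a −log10 q of 5 or more most of it remained. Leaving out each of the 19 chromosomes in turn kept the central share of peaks between 6.02% (without chromosome 8) and 6.73%, and the ratio of densities between 0.150 (without chromosome 8) and 0.168. With the centre from 25 to 75%, 30 to 70% and 40 to 60% of the span, it held 2696, 1729 and 567 peaks (17.1%, 10.9% and 3.59%), at density ratios of 0.206, 0.184 and 0.149. Including chromosome 13 gave 8.70%, a ratio of 0.222 and 14.8% at the floor, and bounds of 25 to 75% gave 15.6% at the floor. The median over chromosomes was 5.86% for the share, 0.145 for the ratio and 22.7% for a neighbour within 2 kb. With 1 peak kept per group of summits linked by 10 kb, an alternative chosen after seeing the data, the share was 8.03% and the ratio 0.204, and 19.6% of central peaks were at the floor (10.46% in the rest). With a −log10 q of 10 or more there were 477 central peaks, with a median fold of 7.24 (7.11 in the rest), 31 fragments, a width of 467 bp, 16.98% at a fold of 10 or more and 14.1% with a neighbour within 2 kb (15.1% in the rest). With 5 or more, the median fold was 5.64 (5.65 in the rest) from 24 fragments, and 23.5% had a neighbour within 2 kb (27.7% in the rest). Peaks passing at the lower counting bound had a fold of 6.34 (6.29 in the rest), 27 fragments, a width of 423 bp, 11.6% at a fold of 10 or more and 21.3% with a neighbour within 2 kb (21.4% in the rest). Merging peaks with edges closer than 1 fragment length gave 21.4% (25.3% in the rest). Neighbours within 1, 5 and 10 kb were found for 13.1%, 41.6% and 47.2% of central peaks, against 14.1%, 50.9% and 66.4% of the rest. The share with the nearest summit over 100 kb away was 40.7% (6.94% in the rest) with a −log10 q of 10 or more, 31.8% (4.04%) at the lower counting bound, and 14.4% (1.48%) with bounds of 25 to 75%. Measuring the span from the first peak and leaving out peaks of raised input moved none of these values beyond its counting interval. The median fold was at or below that of the rest in 7 of 31 alternatives, and above it in the other 24. A count of peaks has no median over chromosomes to set beside it, so that alternative was not run for it. No paired analysis was possible because ChIP and input have 1 library each. Depth limits most the weakest central peaks, which rest on as few as 12 fragments.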

Other observations

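Across the 19 chromosomes, centres with more peaks per Mb had a lower share of peaks at the input floor (Spearman's rho −0.59, Pearson's r −0.45) and a lower share of peaks over 100 kb from another summit (rho −0.84, r −0.74). They also lay on chromosomes with more peaks per Mb in the rest (rho 0.53, r 0.49). These describe 19 points that share 1 ChIP and 1 input library, and neighbouring peaks share input windows. Density and the distance to the nearest summit come from the same positions, so their relation is partly set by construction. No clear relation was seen between the density of a centre and its median fold (rho −0.29, r −0.30).

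The unplaced scaffolds, which belong to no chromosome position, held 96 peaks. Of these, 20.8% (13.9 to 30) were at the input floor, against 18.3% (16.1 to 20.8) of the central peaks, and their median fold was 5.68 (5.37 to 6.34), against 5.44.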
